A study of Homo sapiens with 4 samples.

Results

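The HOX clusters A to D were examined in the ATAC-seq peak lists of 4 human cell lines. Established breast cancers gave SKBR3 and T47D, and colorectal cancers gave HCT116 and RKO, each labelled as wild type. ATAC-seq inserts sequencing adapters into accessible DNA, so that stretches of stacked tags mark open chromatin. The culture medium was RPMI for T47D, DMEM with serum for RKO and McCoy's 5A for SKBR3 and HCT116. No treatment is named, and there was 1 library per line. A peak was counted as a HOX peak where its summit, the position of highest tag pileup, lay in a fixed window of the hg19 build. The windows were chr7:27120000-27260000 for HOXA, chr17:46590000-46820000 for HOXB, chr12:54320000-54460000 for HOXC and chr2:176940000-177070000 for HOXD. They held 218 of the 295586 peaks on chromosomes 1 to 22 and X. After overlapping peaks of the 4 lists were merged, these were 123 of 167619 regions.

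HOX genes encode homeodomain transcription factors that give cells their position along the body axis. In each cluster the genes stand in the order in which they are used, from the anterior end, with low gene numbers, to the posterior end, with high numbers. Silent HOX genes lie in compacted chromatin under Polycomb proteins, and differentiated cells keep part of the pattern of the place they came from. By RefSeq gene order, the genes listed for HOXA ran from HOXA2, HOXA3 and HOXA4 through HOXA5, HOXA6 and HOXA7 to HOXA9, HOXA10, HOXA11 and HOXA13. HOXB ran from HOXB1, HOXB2, HOXB3 and HOXB4 through HOXB5, HOXB6, HOXB7, HOXB8 and HOXB9 to HOXB13. HOXC ran from HOXC4, HOXC5 and HOXC6 through HOXC8, HOXC9 and HOXC10 to HOXC11, HOXC12 and HOXC13. HOXD ran from HOXD1, HOXD3 and HOXD4 through HOXD8, HOXD9 and HOXD10 to HOXD11, HOXD12 and HOXD13. The anterior end had the low coordinates in HOXA and HOXB and the high coordinates in HOXC and HOXD. The 38 genes listed served only to name and orient the clusters. The gene table used here is on GRCh38.p14 and the peaks are on hg19, so no peak was assigned to a gene, a promoter, an exon or an intron. Positions along a cluster are given in kb from the anterior end of its window.

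MicroRNA genes also lie between the HOX genes, and they are shown because some are copies of each other in different clusters, as the HOX genes are. By RefSeq order (GRCh38.p14), MIR10A lies between HOXB4 and HOXB5, MIR196A1 between HOXB9 and HOXB13, MIR196A2 between HOXC10 and HOXC9, and MIR196B between HOXA9 and HOXA10. MIR10B lies between HOXD8 and HOXD4, and its sequence is not shown. Capitals mark the seed, bases 2 to 8, which pairs with target RNAs.
miR-10a-5p: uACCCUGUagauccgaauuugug
miR-196a-5p: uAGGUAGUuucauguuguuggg
miR-196b-5p: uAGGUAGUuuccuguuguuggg
The HOXB and HOXC copies of miR-196a gave the same mature sequence. The HOXA copy, miR-196b, had the same seed and differed from miR-196a at A12C, counted from the 5′ end.

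The promoters of the genes at the opposite ends of HOXD are shown because, in the lists as deposited, the lines differed in the parts of HOXD with most calls, as described below. Both are RefSeq sequences of 300 bases (GRCh38.p14, plus strand), from 250 bases before the gene start to 50 after it, with each CG in capitals. HOXD13, at the posterior end, lies at chr2:176092471-176092770, and HOXD1, at the anterior end, at chr2:176188418-176188717 of that build.
HOXD13: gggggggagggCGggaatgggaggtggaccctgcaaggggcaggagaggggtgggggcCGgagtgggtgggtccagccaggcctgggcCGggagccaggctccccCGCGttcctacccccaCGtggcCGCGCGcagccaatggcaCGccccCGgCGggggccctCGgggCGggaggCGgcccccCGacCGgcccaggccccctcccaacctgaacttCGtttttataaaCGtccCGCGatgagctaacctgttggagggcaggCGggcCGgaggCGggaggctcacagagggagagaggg
HOXD1: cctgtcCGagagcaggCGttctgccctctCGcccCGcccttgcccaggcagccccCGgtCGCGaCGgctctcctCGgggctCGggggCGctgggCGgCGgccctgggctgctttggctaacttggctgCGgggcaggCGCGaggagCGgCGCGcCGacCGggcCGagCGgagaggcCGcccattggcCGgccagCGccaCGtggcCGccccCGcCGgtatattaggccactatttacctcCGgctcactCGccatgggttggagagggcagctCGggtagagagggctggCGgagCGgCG
The HOXD13 promoter held 24 CG pairs and the HOXD1 promoter 36, against a median of 14 over the 35116 promoters in the table. As many or more were found in 33.9% of all promoters for HOXD13 and in 12.7% for HOXD1. The pattern TGATNNAT, a form of the site bound jointly by HOX and PBX proteins, was searched on both strands. It was absent from these letters in both promoters and present in 7.40% of all promoters. Whether any called peak covers these sequences was not tested. Of the 38 genes, 20 had a promoter in the table.

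The libraries differed in depth, which bears on every count. After removal of duplicate positions SKBR3 kept 4313512 tags, T47D 5450100, HCT116 1057628 and RKO 3262240. The SKBR3 list held 111635 peaks, that of T47D 77458, that of HCT116 39899 and that of RKO 66594. Counts are therefore given as deposited and with every list shortened to the 39899 peaks with the best q values. With 1 library per line no difference between lines has a replicate check, and none was tested. Intervals are exact Clopper-Pearson 95% intervals and cover counting error only. Pileup, the number of tags stacked at the summit, is not scaled between libraries, so each is given with its percentile within its own list.

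RKO had the most HOX peaks although it had fewer tags after duplicate removal, and a shorter list, than both breast lines. The 4 windows together held 48 SKBR3 peaks, 64 T47D peaks, 35 HCT116 peaks and 71 RKO peaks. This was 0.0430% of the SKBR3 list, 0.0826% of the T47D list, 0.0877% of the HCT116 list and 0.107% of the RKO list. Called peaks covered 1.67% of the windows for SKBR3, 2.66% for T47D, 0.960% for HCT116 and 2.61% for RKO. With lists of equal length SKBR3 had 15 peaks, T47D 31, HCT116 35 and RKO 46. RKO remained highest, and SKBR3, the line with the longest list, became lowest.

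Every line had called peaks in every cluster, and the lines differed in how many they had in each. In HOXA, RKO had 19 peaks, against 7 in SKBR3, 9 in T47D and 8 in HCT116. In HOXB, T47D had 25 and RKO 26, about as many as each other, against 11 in SKBR3 and 12 in HCT116. HOXC was the cluster with most peaks for its length in both breast lines, with 19 in SKBR3 and 22 in T47D, against 8 in HCT116 and 14 in RKO. In HOXD, SKBR3 had 11, T47D 8, HCT116 7 and RKO 12. With lists of equal length, SKBR3 had 2 peaks in HOXA, T47D 5, HCT116 8 and RKO 13, and in HOXB SKBR3 had 2, T47D 12, HCT116 12 and RKO 16. In HOXC the breast lines then had no common lead, with 10 in SKBR3 and 12 in T47D, against 8 in HCT116 and 11 in RKO. In HOXD only 1 peak was left in SKBR3 and 2 in T47D, against 7 in HCT116 and 6 in RKO.

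**Figure D1:**
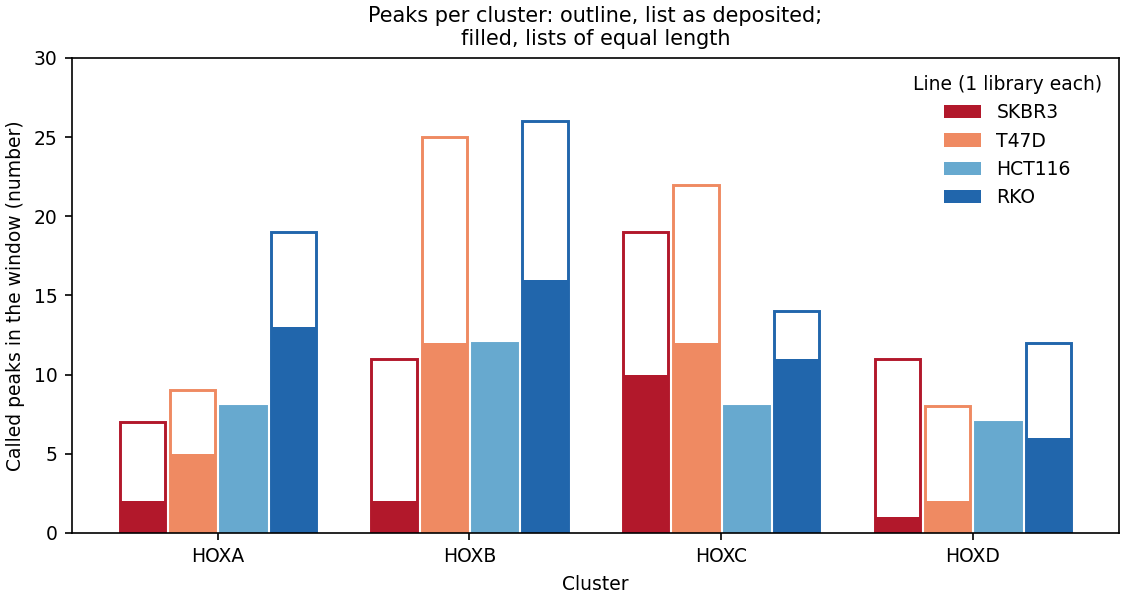
Number of called peaks (y axis) in each HOX cluster (x axis) for SKBR3, T47D, HCT116 and RKO, 1 library each. Outlines are the lists as deposited and filled bars the lists shortened to 39899 peaks, where RKO led in HOXA with 13 and SKBR3 kept 2 peaks in HOXA, 2 in HOXB and 1 in HOXD.

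For scale, the genome was cut into consecutive tiles as long as each window, and those with a peak in any line were counted. This count used the lists as deposited. In RKO, 0.404% of such tiles held as many peaks as HOXA, 0.652% as many as HOXB, 1.95% as many as HOXC and 2.85% as many as HOXD. In T47D, 0.425% of tiles held as many as HOXC and 2.05% as many as HOXB, but 13.2% as many as HOXA and 14.8% as many as HOXD. In SKBR3, 2.34% of tiles held as many as HOXC, but 14.3% as many as HOXD, 34.9% as many as HOXA and 34.6% as many as HOXB. In HCT116, between 4.01% (HOXB) and 5.34% (HOXD) of tiles held as many. HOXA and HOXB in SKBR3 were thus ordinary stretches of that library by peak number.

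Strong calls, with a −log10 q of at least 10, were not more frequent in the HOX clusters than in the whole list of the same line. In SKBR3 they were 9 of 48 HOX peaks (18.8%, 95% interval 8.95 to 32.6), against 30.0% of all SKBR3 peaks. In T47D they were 29 of 64 (45.3%, 32.8 to 58.3), against 48.2% of the list. In HCT116 they were 5 of 35 (14.3%, 4.81 to 30.3), against 25.1%, and in RKO 19 of 71 (26.8%, 16.9 to 38.6), against 30.9%. The background share lay inside the interval in all 4 lines. The median pileup percentile of HOX peaks was 44.1 for SKBR3, 58.2 for T47D, 41.0 for HCT116 and 59.3 for RKO, where 50 is the middle of a list. By fold enrichment, the authors' ratio of pileup to local background, the median percentile was lower, at 40.8, in T47D and 51.5 in RKO.

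HOXC held the strongest HOX peaks of both breast lines and of HCT116, and HOXD held the weaker ones in the lists as deposited. The median pileup percentile in HOXC was 59.8 for SKBR3, 73.3 for T47D, 53.3 for HCT116 and 68.7 for RKO. In HOXD it was 27.3 for SKBR3, 21.6 for T47D, 28.8 for HCT116 and 47.9 for RKO. In HOXA it was 55.4 for SKBR3, 48.8 for T47D, 51.0 for HCT116 and 65.9 for RKO. In HOXB it was 36.6 for SKBR3, 55.4 for T47D, 41.0 for HCT116 and 59.3 for RKO. In the lists as deposited HOXD was thus lowest of the 4 clusters in every line, and HOXC highest. This order did not hold throughout at equal list length. There the HOXB median, 10.1, was lowest in SKBR3, the HOXA median, 29.0, was lowest in T47D, and in RKO the HOXA median of 55.9 was above the 52.4 of HOXC. HOXD then rested on 1 peak in SKBR3 (23.7) and 2 in T47D (46.5). By median fold, T47D stood at 6.16 in HOXC, below 7.66 in HOXA and 7.10 in HOXB. Of all 218 HOX peaks, 9 reached the 90th percentile of their list. Of these, 7 lay in HOXC and 2 in HOXB, and 5 were T47D peaks, 2 RKO peaks, 1 a SKBR3 peak and 1 an HCT116 peak.

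**Figure D2:**
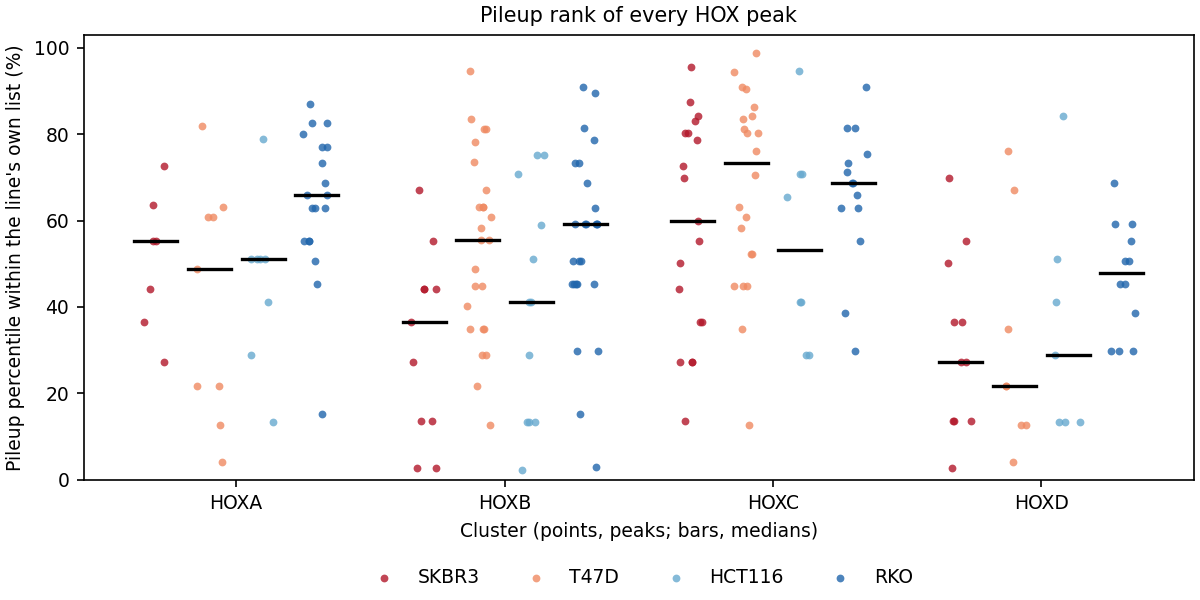
Percentile of pileup within the line's own list (y axis) of each HOX peak, by cluster (x axis) and line, with black bars at the medians. In these lists as deposited HOXD peaks have the lowest median in every line (21.6 in T47D to 47.9 in RKO), which was not so at equal list length in SKBR3 and T47D, and the highest single point is the T47D peak in HOXC at 98.8.

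The strongest HOX peak of SKBR3, T47D and HCT116 was one and the same region at the posterior, HOXC13 end of HOXC, where RKO had only a weak call. HOXC13 acts in hair follicles and nails. The region, chr12:54332099-54332741, lay about 128 kb from the anterior end. Its pileup was 36 tags for SKBR3, 75 for T47D, 20 for HCT116 and 4 for RKO. These were at the 95.5th percentile in SKBR3, the 98.8th in T47D and the 94.5th in HCT116, but at the 29.7th in RKO. When the window was cut into 3 equal parts, the posterior part held 7 peaks of SKBR3, 6 of T47D, 2 of HCT116 and this 1 of RKO. At equal list length it held 4 of SKBR3, 3 of T47D, 2 of HCT116 and 0 of RKO. Its longest stretch without a HOXC peak ran for 35.1 kb, from 92.5 to 128 kb. SKBR3 had 6 peaks inside that stretch, T47D 4 and HCT116 1.

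In the middle of HOXC, RKO had more calls than SKBR3 and HCT116. Its strongest HOX peak in that cluster was part of chr12:54411405-54412264, 48.2 kb from the anterior end. The highest pileup there was 20 in SKBR3 (84.3rd percentile), 54 in T47D (94.4th), 9 in HCT116 (70.8th) and 29 in RKO (91.0th). The middle part held 6 peaks for SKBR3, 14 for T47D, 4 for HCT116 and 10 for RKO. HOXC8, HOXC9 and HOXC10, of which the first 2 are known for trunk identity, stand in the middle of the order of this cluster. At the anterior, HOXC4 end T47D had no peak in the first 29.2 kb, and there SKBR3 had 3 and the colorectal lines none. The 2 nearest the end, at chr12:54450332-54450518 and chr12:54455367-54455615, had pileups of 4 and 3 in SKBR3, at the 27.3rd and 13.7th percentile.

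T47D peaks in HOXC stood on a raised background of tags. The local background is the tag density that the peak caller found around a peak, over a range of up to 10 kb, so nearby peaks add to it. It was recovered from pileup and fold and is given as a multiple of the genome-wide level of the same library. Its median under HOXC peaks was 3.64 for SKBR3, 13.4 for T47D, 4.95 for HCT116 and 8.79 for RKO. Over all peaks the medians were 1.75 for SKBR3, 2.403 for T47D, 4.13 for HCT116 and 1.87 for RKO, so multiples of different lines are not on one scale. In T47D only 9.08% of all peaks had a background as high as that HOXC median, against 29.8% in SKBR3, 43.8% in HCT116 and 22.3% in RKO for their own medians. Of the 22 T47D peaks in HOXC, 14 stood at 10 times or more, against 14.7% of all T47D peaks. They lay between 48.2 and 128 kb, and the highest stood at 24.1 times. The trait was not particular to T47D or to HOXC. RKO had 7 of 19 such peaks in HOXA, 8 of 26 in HOXB and 4 of 14 in HOXC, against 19.3% of its list. Its HOXA median was 8.03. HCT116 had 2 in HOXA (20.5% of its list) and T47D 2 in HOXB. Fold enrichment was low for many of the 14 T47D peaks. The peak with its summit at base 54380001 of chromosome 12, for example, had 16 tags, at the 63.0th percentile by pileup, but a fold of 3.04, at percentile 0.352 by fold. The cause of the raised background was not tested.

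**Figure D3:**
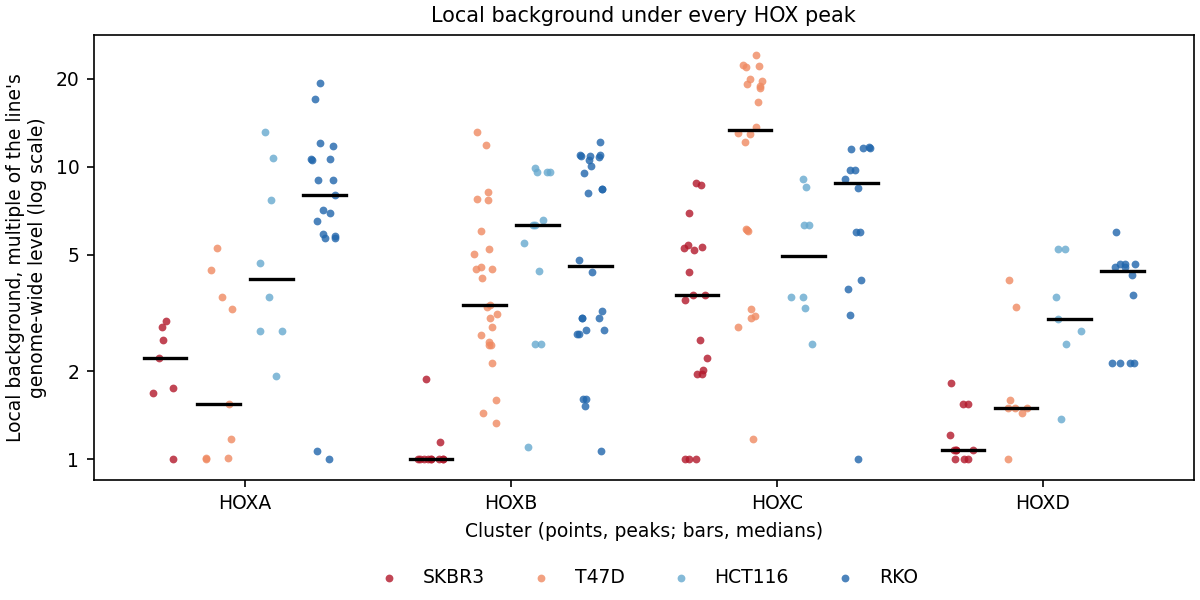
Local background under each HOX peak as a multiple of the line's genome-wide level (y axis, log scale), by cluster (x axis) and line, with black bars at the medians. T47D peaks in HOXC reach 24.1 times and have a median of 13.4. SKBR3 peaks in HOXB have a median of 0.999, which as rounded is also the lowest value in SKBR3, T47D and RKO and may be a floor.

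In HOXB, T47D and RKO had many calls and SKBR3 few and weak ones. The strongest peak of T47D and RKO, and one of the strongest pair in HCT116, was chr17:46662665-46663461, 72.9 kb from the anterior end. The pileup was 6 tags for SKBR3, 55 for T47D, 10 for HCT116 and 29 for RKO. This was the 44.1st percentile in SKBR3 and the 94.7th in T47D, and the 75.2nd in HCT116 and the 91.0th in RKO. The summit lay at the same base, 46662867, in SKBR3, T47D and RKO and 2 bp away in HCT116. HOXB peaks in SKBR3 stood on a background of 0.999 times the genome-wide level at the median, and no HOXB peak there exceeded 1.89 times. As rounded, 0.999 was also the lowest value under HOX peaks in SKBR3, T47D and RKO alike. It may thus be a floor, and the true local density may be lower. The HOXB medians of the other lines were 3.36 in T47D, 6.33 in HCT116 and 4.59 in RKO.

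Along HOXB the calls of T47D and RKO were fewest in the posterior of 3 equal parts. The anterior, middle and posterior parts held 10, 12 and 3 peaks in T47D and 8, 12 and 6 in RKO. At equal list length they held 4, 5 and 3 in T47D and 6, 6 and 4 in RKO. The part of the window anterior to its midpoint held 7 of 11 peaks in SKBR3, 19 of 25 in T47D (76.0%, 54.9 to 90.6), 7 of 12 in HCT116 and 18 of 26 in RKO (69.2%, 48.2 to 85.7). These intervals treat neighbouring peaks as independent, and the posterior side holds the peak-free stretch described next, so no conclusion was drawn from them. Between 166 and 207 kb no line had a peak, a stretch of 41.2 kb. In RefSeq order HOXB9 and HOXB13 are neighbours among the HOX genes, with PRAC1 between them. HOXB13 marks hindgut and prostate epithelium. Beyond this stretch, at the HOXB13 end, the calls were few: chr17:46801885-46802132 in SKBR3 (3 tags) and T47D (18 tags, 67.1st percentile), chr17:46797158-46797401 in RKO (9 tags, 59.3rd percentile), and chr17:46805553-46805823 at 2 or 3 tags in SKBR3, HCT116 and RKO. HCT116 had 1 further call there, at chr17:46806045-46806151, with 3 tags. None of these calls of the HOXB13 end reached the 70th percentile of its list.

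In HOXA, RKO carried calls along most of the cluster while the breast lines had almost none in its anterior part. Of the 14 bins of 10 kb, 11 held a peak in RKO, against 5 in SKBR3, 7 in T47D and 7 in HCT116. SKBR3 had no peak for 49.9 kb from 0.704 kb onward and T47D none for 55.6 kb from 0.598 kb onward. In the T47D stretch HCT116 had 4 peaks and RKO 5, and with lists of equal length both had 4. This end holds HOXA2 and HOXA3, which pattern the hindbrain and pharyngeal arches, and HOXA4. HCT116 in turn had no peak from 50.5 to 85.2 kb, where RKO had 10, SKBR3 3 and T47D 3. RKO peaks crowded there: the middle part of the window held 12 in RKO, against 4 in SKBR3, 3 in T47D and 3 in HCT116. At equal list length it held 8 in RKO, against 1 in SKBR3, 3 in T47D and 3 in HCT116. HOXA5, HOXA6 and HOXA7 come after the anterior genes in this order, then HOXA9, known from blood cell formation, and HOXA10, known from the uterus.

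**Figure D4:**
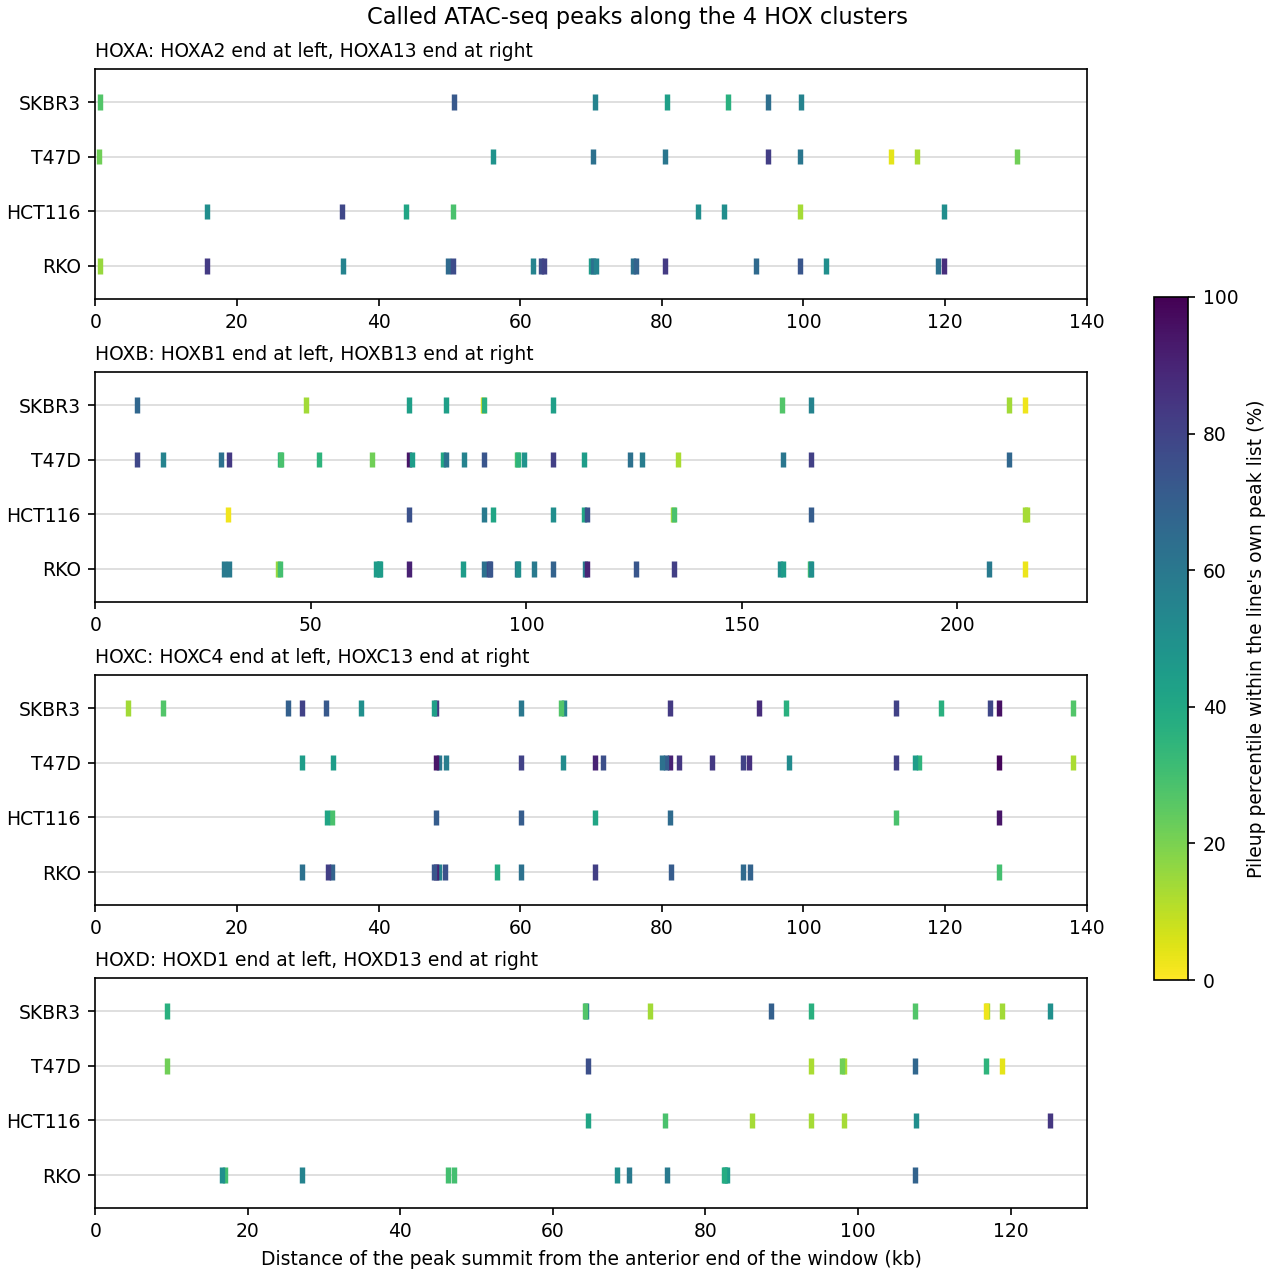
Summits of all called peaks along each HOX cluster, with distance from the anterior end of the window in kb on the x axis, 1 row per line and colour for the pileup percentile in the line's own list. RKO fills most of HOXA (19 peaks) and has calls in the anterior part of HOXD, where HCT116 has none, and no line has a peak between 166 and 207 kb in HOXB.

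HOXA also held regions that only a same-tissue pair of lines had called. The colorectal pair alone had 3 of the 27 HOXA regions (11.1%, 95% interval 2.35 to 29.2), against 1.61% of all merged regions. The breast pair alone had 1 of 27 (3.70%, 0.0937 to 19.0), against 12.4%. These shares are from the lists as deposited, and at equal list length the background share of the colorectal pair alone was 5.08%. The 4 clusters together then held 6 such regions of 75 (interval 2.99 to 16.6%), so that this background lay inside the interval. The equal-length share for HOXA by itself is not given. With 1 library per line, whether such calls follow tissue was not tested. Both colorectal lines and neither breast line had chr7:27135534-27136137, with 6 tags in HCT116 (51.0th percentile) and 20 in RKO (82.6th), and summits 5 bp apart. The same held for chr7:27154812-27155106, with 11 tags in HCT116 (78.8th percentile, its strongest HOXA peak) and 8 in RKO (55.2nd). It held as well for chr7:27239790-27240136, 120 kb from the anterior end, with 6 tags in HCT116 and 24 in RKO (86.9th percentile, its strongest HOXA peak). That region lies towards the end of HOXA13, a gene of the hindgut and of limb ends. Both breast lines and neither colorectal line had chr7:27214868-27215120, with 10 tags in SKBR3 (63.7th percentile) and 30 in T47D (82.0th, its strongest HOXA peak). The summits of the breast pair were 12 bp apart.

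In HOXD, cut into 3 equal parts, RKO calls lay mostly in the middle part and those of the other lines mostly in the posterior part. Posterior to the window midpoint, however, lay 8 of 11 peaks in SKBR3, 6 of 8 in T47D, 6 of 7 in HCT116 and also 7 of 12 in RKO. HOXD13, HOXD12 and HOXD11 pattern limbs and the genital and hindgut region. The posterior part, of 43.3 kb, held 7 peaks for SKBR3, 6 for T47D, 4 for HCT116 and 1 for RKO. The middle part held 3 for SKBR3, 1 for T47D, 3 for HCT116 and 8 for RKO. The anterior part held 1 in SKBR3, 1 in T47D, none in HCT116 and 3 in RKO. The posterior excess of the breast lines was not seen with lists of equal length, where the posterior part held 1 peak of SKBR3, 1 of T47D, 4 of HCT116 and 1 of RKO. The middle part then held 0 of SKBR3, 1 of T47D, 3 of HCT116 and 3 of RKO. SKBR3 had no peak for 54.7 kb, T47D for 55.2 kb and HCT116 for 64.7 kb, all ending near 64 kb from the anterior end. RKO had 5 peaks in each of these stretches. They were weak to middling, with 4 to 8 tags, and 2 of the 5 stayed with lists of equal length. The widest of them, chr2:177042780-177043518, was 739 bp long with 8 tags (55.2nd percentile). No HOXD region was called in both colorectal lines and in neither breast line (0 of 24 regions, 95% interval up to 14.2%), nor any in HOXC (0 of 32), and with a share of 1.61% over all merged regions both counts were near the background.

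Only 1 HOXD region was called in all 4 lines. It was chr2:176961987-176962807, 108 kb from the anterior end, with 4 tags in SKBR3 (27.3rd percentile), 18 in T47D (67.1st), 6 in HCT116 (51.0th) and 12 in RKO (68.7th). It was the strongest HOXD peak of RKO. The strongest of T47D, 24 tags at the 76.1st percentile, lay in chr2:177005256-177005897, where RKO had no call. The strongest of HCT116, 13 tags at the 84.2nd percentile, lay in chr2:176944690-176944910, which only SKBR3 shared, with 7 tags. The strongest of SKBR3, chr2:176981271-176981507 with 12 tags (69.9th percentile), was called in no other line. The 4 lines thus had different strongest regions in HOXD, while SKBR3, T47D and HCT116 shared theirs in HOXC.

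The merged regions showed how far the lines had the same HOX elements. Of the 123 regions, 10 (8.13%, 3.97 to 14.4) were called in all 4 lines, against 11.8% of all merged regions. A further 15 (12.2%, 6.99 to 19.3) were called in 3 lines, against 8.22%, 23 (18.7%, 12.2 to 26.7) in 2 lines, against 20.0%, and 75 (61.0%, 51.8 to 69.6) in 1 line, against 60.0%. All 4 background shares lay inside the intervals. At equal list length, however, 4 of 75 HOX regions (5.33%, 1.47 to 13.1) were called in all 4 lines, against 16.2% of all regions, which lies outside the interval. RKO alone had 32 regions (26.0%, 18.5 to 34.7), against 14.8% of all regions, and T47D alone had 23 (18.7%, 12.2 to 26.7), against 11.5%. SKBR3 alone had 13 (10.6%, 5.75 to 17.4), against 30.5%. HCT116 alone had 7 (5.69%, 2.32 to 11.4), against 3.18%. With lists of equal length RKO alone had 19 of 75 regions (25.3%), against 15.0% of all regions, SKBR3 alone 4 (5.33%), against 15.4%, T47D alone 10 (13.3%), against 10.6%, and HCT116 alone 12 of 75, against 12.5%.

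Regions called in all 4 lines had their strongest summits at most 98 bp apart. They numbered 1 in HOXA, 4 in HOXB, 4 in HOXC and 1 in HOXD. Their summits spanned 2 to 98 bp over the 4 lines, with a median of 54 bp. Regions called in 2 lines were about as tight, with a median of 43 bp (0 to 180), and those called in 3 lines had 158 bp (40 to 628). The HOXA region called in all 4 lines was chr7:27219466-27219667, 99.5 kb from the anterior end. It had 8 tags for SKBR3, 15 for T47D, 3 for HCT116 and 14 for RKO. The other HOXB ones were chr17:46679839-46680350, chr17:46696008-46696282 and chr17:46755730-46756192, with 22 to 29 tags in T47D and 5 to 12 in the other lines. The other HOXC ones were chr12:54378639-54378975, with 19 tags for SKBR3, 45 for T47D, 8 for HCT116 and 13 for RKO, and chr12:54399684-54400040, with 9, 28, 9 and 10 in the same order of lines. T47D had the highest pileup of the lines in all 10, and also the most tags in its library.

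Of the 75 regions of a single line none reached the 90th percentile. Few such peaks did so in the whole lists, at 1.91% for SKBR3, 0.694% for T47D, 0.882% for HCT116 and 0.796% for RKO, so that the count of 0 was near the background. The highest was chr12:54366130-54366390 in SKBR3, with 23 tags at the 87.5th percentile. The highest was at the 84.3rd percentile in T47D, the 51.0th in HCT116 and the 80.0th in RKO. Their median percentile was 36.6 for SKBR3, 48.8 for T47D, 41.0 for HCT116 and 55.2 for RKO. Over all peaks called in a single line it was 27.3 for SKBR3, 28.8 for T47D, 28.8 for HCT116 and 29.7 for RKO.

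Split by tissue, HOXA, HOXB and HOXD had a larger share of regions from the colorectal lines alone than the whole series, and HOXC a smaller one. Regions called in a breast line and in no colorectal line were 45 of 123 (36.6%), against 54.5% of all merged regions. Regions called in a colorectal line and in no breast line were 44 (35.8%), against 19.6%. By cluster, HOXA had 6 breast and 16 colorectal regions of 27, HOXB 14 and 14 of 40, HOXC 19 and 1 of 32, and HOXD 6 and 13 of 24. Most colorectal ones were RKO regions: RKO alone had 10 in HOXA, 10 in HOXB, 1 in HOXC and 11 in HOXD. With lists of equal length the breast share was 21.3% and the colorectal share 49.3% of 75 HOX regions, against 33.9% and 32.6% of all regions. The colorectal share was then 64.7% in HOXA, 53.8% in HOXB and 76.9% in HOXD. HOXC then had 7 breast regions and 2 colorectal regions of 19, and its breast share of 36.8% lay near the 33.9% of the whole series.

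**Figure D5:**
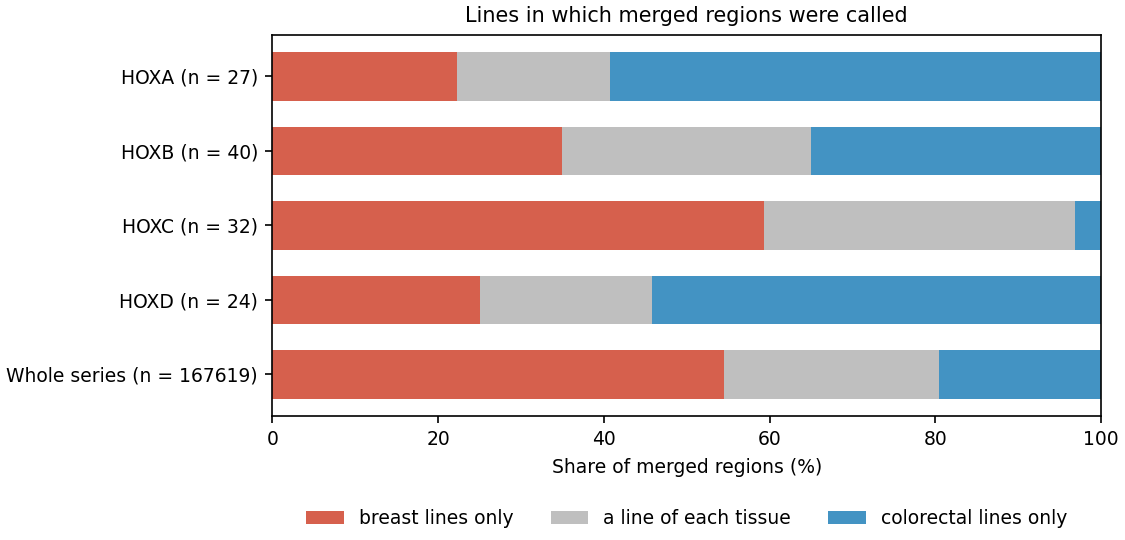
Share of merged regions (x axis, %) called in breast lines only, in a line of each tissue, or in colorectal lines only, for each HOX cluster and for the whole series (lists as deposited). Breast-only regions make up 59.4% in HOXC and colorectal-only regions 59.3% in HOXA and 54.2% in HOXD, against 54.5% and 19.6% in the whole series.

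Regions shared by both lines of a tissue and absent from the other tissue were few. SKBR3 and T47D alone shared 9 HOX regions (7.32%, 3.40 to 13.4), against 12.4% of all regions. HCT116 and RKO alone shared 5 (4.07%, 1.33 to 9.23), against 1.61%, with 3 in HOXA and 2 in HOXB. T47D and RKO, lines of different tissue, alone shared 7 (5.69%, 2.32 to 11.4), against 1.92%, with 4 in HOXB and 3 in HOXC. At equal list length the colorectal pair alone had 6 of 75 (2.99 to 16.6%), against 5.08% of all regions. The breast pair alone then had 2 (0.325 to 9.30%), against 7.96%, and T47D and RKO alone 5 (2.20 to 14.9%), against 2.27%. Each of these background shares lay inside its interval. The colorectal pair in HOXB had chr17:46703816-46704271, with 10 tags in HCT116 (75.2nd percentile) and 27 in RKO (89.5th), and chr17:46723529-46724418, with 4 and 19 tags and the summit at the same base in both. The strongest breast pair in HOXB was chr17:46599627-46599927, near the HOXB1 end at 9.76 kb, with 11 tags in SKBR3, its strongest HOXB peak, and 26 in T47D. The other breast pairs had at most 16 tags except for chr17:46801885-46802132, at the HOXB13 end, and the HOXA region given above.

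Of the HOX regions called in either line of a pair, the breast pair had 27 of 79 in common (34.2%, 23.9 to 45.7), against 37.7% of all such regions. The colorectal pair had 22 of 78 (28.2%, 18.6 to 39.5), against 34.1%. SKBR3 and HCT116 had 17 of 61 (27.9%, 17.1 to 40.8), against 22.8%, and SKBR3 and RKO 18 of 92 (19.6%, 12.03 to 29.1), against 22.7%. T47D and HCT116 had 18 of 78 (23.1%, 14.3 to 34.0), against 29.7%, and T47D and RKO 26 of 102 regions (25.5%, 17.4 to 35.1), against 28.3%. All 6 background shares lay inside the intervals. At equal list length the breast pair had 8 of 38 in common (21.1%, 9.55 to 37.3), below the 18 of 59 of the colorectal pair (30.5%, 19.2 to 43.9), with intervals that overlap. T47D then had 27.5% in common with HCT116 and 25.4% with RKO, and SKBR3 19.5% with HCT116 and 13.7% with RKO. In the lists as deposited, the 27 regions of the breast pair were 61.4% of the SKBR3 and 43.5% of the T47D HOX regions. The 22 of the colorectal pair were 64.7% of the HCT116 and 33.3% of the RKO HOX regions.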

How the data were processed

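ATAC-seq was run on 4 cell lines, with 1 library of 60 bp single-end reads each. The submitters' processing notes name Bowtie2 2.4.1, MACS3 3.0.0b3 and the hg19 build. Per the file headers, peaks were called per library without a control, with a q cutoff of 0.1, 1 tag kept per position, a fragment model from the data and a local background range of 10 kb. No shift of reads to the insertion site is named there, so summits mark the centre of extended tags. The T47D header spells its input T45D. The deposited rows hold positions, the pileup signal, the authors' fold enrichment ratio and −log10 p-values and q-values.

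Computed here, with Python 3.11.15, pandas 2.3.3 and SciPy 1.17.1, were the union of lists (overlap of at least 1 bp), percentile ranks within each list, exact binomial intervals, bins and peak-free stretches. Local background is (pileup + 1) / fold − 1, divided by tags × fragment length / genome size. The union code was tested on simulated data. Called regions only were compared across the genome. No hg19 gene positions were used, so calls at HOX gene starts, at cofactor genes and at tissue marker genes were not run, and the identity of the lines was not checked. Regions were named where they were the strongest peak of a cluster in a line, were called in all 4 lines, or in both lines of 1 tissue alone; single-line regions from the 90th percentile up, of which there were none; and the longest stretch without a peak. Other regions, and the 10 times background limit, were chosen after their values were seen. The windows, members and lists were chosen with earlier results of these data known.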

Additional observations from a re-analysis of the deposited data

How the results depend on the processing

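Counts and stretch lengths were called changed when they moved by more than 1.5 times, and shares and median percentiles when they left their own 95% interval. Any overlap with the window in place of the summit changed none of the 16 cluster counts, and narrowing each window by 10 kb at both ends changed none of those or of the 4 shares of peaks anterior to the window midpoints. No paired analysis was possible because each line has 1 library and no result comes from a test.

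With strong calls alone (−log10 q from 10 up), peak counts for SKBR3, T47D, HCT116 and RKO were 1, 5, 1 and 8 in HOXA, 1, 12, 1 and 6 in HOXB, 6, 10, 2 and 4 in HOXC, and 1, 2, 1 and 1 in HOXD. Of the 44 regions then left, 0 were called in all 4 lines, 4 in 3, 10 in 2 and 30 in 1. T47D alone had the most, 17, against 9 for RKO alone, 3 for SKBR3 alone and 1 for HCT116 alone. The breast pair alone had 2 and the colorectal pair alone 1. Shares over all merged regions are not given at this threshold, so no conclusion was drawn from these region counts. The longest stretch became 88.6 kb (SKBR3, HOXD), 125.2 kb (HCT116, HOXD) and 95.7 kb (RKO, HOXB). This threshold is harder to reach in a shallow library.

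With lists of equal length the changed counts were 2 and 5 in HOXA (SKBR3, T47D), 2, 12 and 16 in HOXB (SKBR3, T47D, RKO), 10 and 12 in HOXC (SKBR3, T47D), and 1, 2 and 6 in HOXD (SKBR3, T47D, RKO). Regions called in all 4 lines numbered 4, in 1 line 45, in the breast pair alone 2, in SKBR3 alone 4, T47D alone 10, HCT116 alone 12 and RKO alone 19. The SKBR3 stretch was 88.6 kb. The median pileup percentile was 29.1 in SKBR3 and 48.6 in RKO. Ranked by fold it was 40.8 in T47D and 51.5 in RKO, and ranked by q 43.8 and 49.0. Chaining summits within 150 bp gave 9 regions in 3 lines and 20 of SKBR3 alone.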

Other observations

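The stretches next to the clusters, each as long as its window, are described here by number of calls. Beyond the anterior end of HOXA there were 2 peaks in SKBR3, none in T47D, none in HCT116 and 4 in RKO, and beyond its posterior end, on the side of HOXA13 and EVX1, 7 in SKBR3, 5 in T47D, none in HCT116 and 1 in RKO. Beyond either end of HOXD no line had more than 2. The highest peaks there were nevertheless strong, at the 90.2nd percentile in RKO and the 87.5th in SKBR3 beyond the posterior end, on the side of HOXD13 and EVX2.

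Beyond the posterior end of HOXB, the HOXB13 end, SKBR3 had 9 peaks, T47D 15, HCT116 11 and RKO 19. The highest was at the 94.2nd percentile in SKBR3, the 99.9th in T47D, the 99.8th in HCT116 and the 99.1st in RKO, each above the highest HOXB peak of its line. The median percentile was higher than inside HOXB in SKBR3 (74.8 against 36.6) and HCT116 (75.2 against 41.0), close to it in T47D (58.2 against 55.4) and lower in RKO (55.2 against 59.3). Beyond the HOXC13 end SKBR3 had 8 peaks and T47D 9, up to the 96.8th and 98.6th percentile, against 3 in HCT116 (up to the 41.0th) and 1 in RKO (2.93rd). These flanks were compared after the values in the clusters were known, and none of the differences was tested.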
